A study of Mus musculus with 10 samples.

Results

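The genes described here make up the cholesterol system of the cell: the enzymes that build cholesterol, the SREBP transcription factors with the proteins that hold or release them, the proteins that move and store sterols, and the LXR receptors with the efflux genes they drive. There were 32 such genes among the 45706 gene rows of the count table. They were chosen by name for their place in the pathway, with earlier results of these data known. They comprised 7 enzymes of the mevalonate steps, 11 enzymes of the squalene and sterol steps, 5 SREBP regulators, 4 genes of uptake, transfer and storage, and 5 LXR and efflux genes. All 32 had enough reads to be tested.

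RNA was sequenced from the whole uterus of 10 adult female mice on gestation day (GD) 3.5, shortly before embryos implant. The control group held 5 Arid1a f/f mice, which carry floxed alleles of Arid1a, a subunit of the SWI/SNF chromatin remodeling complex. The other group held 5 Ltf iCre/+ Arid1a f/f mice, which carry the same floxed alleles and in addition a Cre recombinase expressed from the lactoferrin (Ltf) locus. These are called Cre uteri below. Cre from this locus acts in the endometrial epithelium of mature females, and its activity in myeloid immune cells has also been reported, whereas the RNA came from epithelium, stroma, muscle and immune cells together. Both groups were on a mixed background of C57BL/6, 129S6/SvEvTac, 129P2/OlaHsd and 129S1/SvImJ. In such bulk tissue, fewer cells of a type and less RNA per cell cannot be told apart.

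Libraries held between 59296537 and 72702411 counts, and levels are given as CPM, a gene's share of each library's normalized total scaled to 1e+06 counts. Arid1a itself was at 213 ± 22.9 CPM in the controls and 185 ± 15.9 CPM in the Cre uteri, a log2 difference of -0.20 that did not pass the test (adjusted p = 0.201, quasi-likelihood test of edgeR, Benjamini-Hochberg adjustment over all genes). The counts cover the whole gene and not the floxed part alone. Ltf, the driver locus, ran from 2.22 to 11.7 CPM in the controls and from 23.6 to 2831 CPM in the Cre uteri. Of 25146 genes tested, 5.19% were called higher and 4.51% were called lower in the Cre uteri at an adjusted p under 0.05, and the median log2 fold change over all of them was 0.03.

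Cholesterol is made from acetyl-CoA. The mevalonate steps turn it into isoprenoid units and join them to farnesyl diphosphate, and the squalene and sterol steps then fold the chain into a ring system and trim it to cholesterol. When sterols in the endoplasmic reticulum run low, SCAP carries SREBP to the Golgi, where it is cut, and the freed part enters the nucleus and switches on these same enzymes. When sterols are plentiful, the INSIG proteins hold SCAP back, and oxysterols activate the LXR receptors, which switch on export. In the uterus, cholesterol serves membranes and is the parent of steroid hormones.

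SREBP binds the sterol regulatory element (SRE) of target promoters, usually next to a CCAAT box, the site of NF-Y, or a GC box, the site of SP1. RefSeq promoter sequences on GRCm38.p6 (250 bases before to 50 bases after the transcript start) were found for 26 of the 32 genes. Fdps, Fdft1, Sqle, Stard4, Npc1 and Abcg1 had no entry. The 250 bases before the start are shown for 3 synthesis enzymes with large differences between genotypes or an SRE match, for Srebf2, and for Abca1, an efflux gene with no CCAAT match. Capitals mark matches to the SRE letters TCACNCCAC and to CCAAT on either strand, so that ATTGG is a CCAAT box on the opposite strand. Each sequence is written 5′ to 3′ on the strand of its gene, and no capital stretches overlap one another.
Hmgcs1 (chr13:119690101-119690350, plus strand): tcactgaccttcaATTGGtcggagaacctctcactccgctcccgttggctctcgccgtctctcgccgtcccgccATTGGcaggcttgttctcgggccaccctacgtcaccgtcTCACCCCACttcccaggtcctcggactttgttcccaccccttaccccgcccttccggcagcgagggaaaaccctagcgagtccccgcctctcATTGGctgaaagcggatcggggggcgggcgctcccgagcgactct
Cyp51 (chr5:4104698-4104947, minus strand): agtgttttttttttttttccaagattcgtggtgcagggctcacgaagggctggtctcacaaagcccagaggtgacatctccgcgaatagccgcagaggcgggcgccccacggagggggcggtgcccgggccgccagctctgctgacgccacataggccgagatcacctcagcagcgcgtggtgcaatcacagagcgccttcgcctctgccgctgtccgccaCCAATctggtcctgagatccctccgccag
Msmo1 (chr8:64733579-64733828, minus strand): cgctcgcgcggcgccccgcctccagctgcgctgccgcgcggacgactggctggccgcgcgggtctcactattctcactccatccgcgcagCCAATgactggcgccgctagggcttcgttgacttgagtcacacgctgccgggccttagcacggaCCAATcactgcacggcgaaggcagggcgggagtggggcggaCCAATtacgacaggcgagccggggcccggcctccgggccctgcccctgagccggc
Srebf2 (chr15:82147019-82147268, plus strand): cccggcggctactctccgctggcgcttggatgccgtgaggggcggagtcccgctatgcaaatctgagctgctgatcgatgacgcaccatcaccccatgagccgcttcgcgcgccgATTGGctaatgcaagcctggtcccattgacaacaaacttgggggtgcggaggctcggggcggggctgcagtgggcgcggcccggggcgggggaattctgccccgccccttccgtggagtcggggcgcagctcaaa
Abca1 (chr4:53159896-53160145, minus strand): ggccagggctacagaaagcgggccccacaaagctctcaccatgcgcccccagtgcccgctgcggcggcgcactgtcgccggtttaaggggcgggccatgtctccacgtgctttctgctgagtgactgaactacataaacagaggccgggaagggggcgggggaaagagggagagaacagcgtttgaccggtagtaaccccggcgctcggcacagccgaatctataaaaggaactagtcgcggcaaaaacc

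The SRE letters were found in the Hmgcs1 promoter alone among the 26 genes, as TCACCCCAC, against 1.24% of all 32851 promoters in the table and 1.44% of its 27025 genes, a gene counting when any of its promoters matched. A CCAAT match was found in 14 of the 15 synthesis enzymes with a promoter, Acat2 being the exception, in 6 of the 7 genes of SREBP control, uptake and storage, and in Mylip alone of 4 LXR and efflux genes. Over the whole table, 37.4% of promoters and 41.1% of genes held one. The GC box letters GGGCGG were found in 14 of the 15 synthesis enzymes, in 7 of 7 control, uptake and storage genes and in 2 of 4 LXR and efflux genes, against 35.7% of all promoters and 38.2% of all genes. Both strands were searched, several genes had more than 1 promoter, and a match only describes the letters in this window. Only exact matches were counted, so a promoter with no match may still hold a near match. The printed Srebf2 and Msmo1 sequences hold tcaccccat and tcactccat, which differ from the SRE letters in the last base.

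The synthesis enzymes were higher in the Cre uteri as a group. The fitted difference was above 0 for 18 of 18 enzymes, and 12 of them were called higher, where 5.19% of all genes tested were. None was called lower. The median log2 fold change of the 18 was 0.73, and for 11 of them all 5 Cre uteri lay above all 5 controls, where 5.53% of all genes tested did. For each of those 11, the two-sided exact permutation test gave 0.00794, the smallest p that 5 uteri against 5 allow. Full separation of the groups fixes that p in advance, so it adds nothing to the lack of overlap. With DESeq2, 14 of the 18 were called higher, where 9.88% of its tested genes were. Without Cre replicates 1 and 5, which held the highest values for 11 of the 12 called enzymes, 10 enzymes passed the threshold, the median was 0.50, and 5.0% of all genes tested were called higher.

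**Figure D1:**
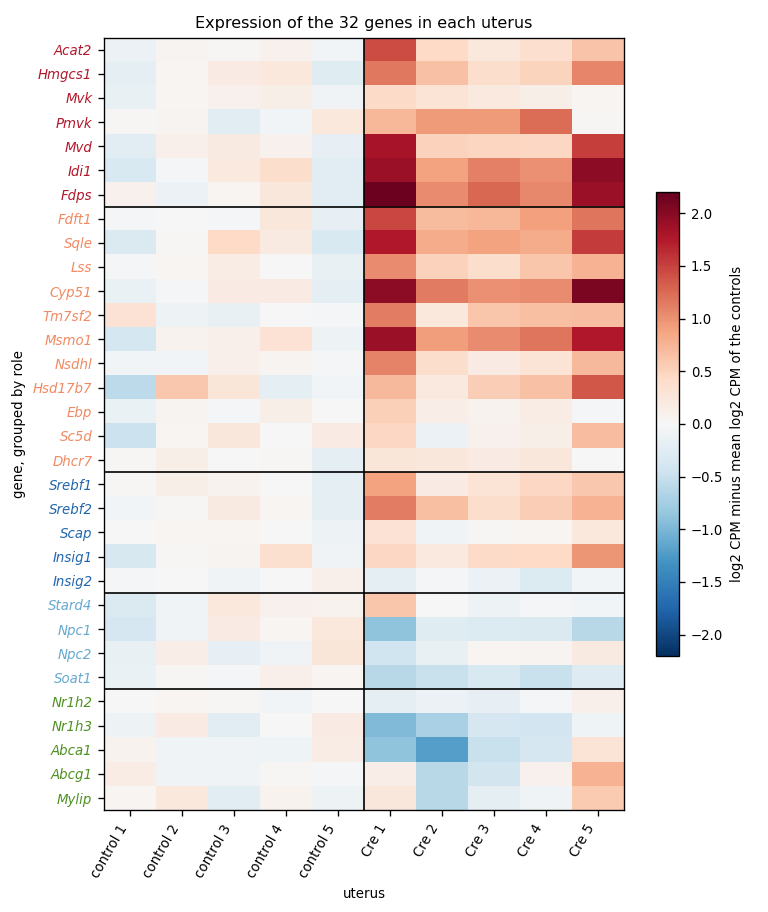
Each row is 1 of the 32 genes and each column 1 uterus, with color giving log2 CPM minus the mean log2 CPM of the 5 controls. Horizontal lines separate, from top to bottom, mevalonate steps, squalene and sterol steps, SREBP regulators, uptake, transfer and storage, and LXR and efflux genes. The upper 2 blocks are mostly red in all 5 Cre uteri and deepest in Cre replicates 1 and 5, where Fdps stood at 5.63 and 4.73 CPM against 1.06 to 1.49 CPM in the controls.

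In the mevalonate steps, 5 of 7 enzymes were called higher, where 5.19% of all genes tested were. The fitted difference was above 0 for all 7, and the median log2 fold change was 0.82. The largest difference was that of Fdps, farnesyl diphosphate synthase, which makes the branch-point product between sterols and other isoprenoids (chr3:89093588-89101959, GRCm38). Fdps was at 1.34, 1.16, 1.30, 1.49 and 1.06 CPM in control replicates 1 to 5 and at 5.63, 2.59, 3.02, 2.63 and 4.73 CPM in Cre replicates 1 to 5. The groups did not overlap, and Cre replicates 1 and 5 were highest. The rise was 2.93-fold (log2 1.55, SE 0.26, adjusted p = 0.00521, edgeR's quasi-likelihood test). Of the 50-base words in Fdps transcripts, 15.5% also occur in other genes, among them processed pseudogenes, so its count is uncertain. Fdps also overlaps Gm43738, a protein-coding gene at 0.0 CPM, on the same strand, which adds to that uncertainty. How reads in the overlap were counted was not checked.

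Idi1, isopentenyl-diphosphate isomerase, interconverts the pair of isoprene building blocks (chr13:8885501-8892451). Its levels were 2.25, 2.79, 3.29, 3.68 and 2.37 CPM in the controls and 10.6, 5.24, 6.08, 5.65 and 11.1 CPM in the Cre uteri. Again no Cre uterus fell within the control range, and replicates 1 and 5 reached the highest levels. Idi1 rose 2.69-fold (log2 1.43, SE 0.26, edgeR adjusted p = 0.00802). It shares 17.7% of its words with other genes, among them processed pseudogenes.

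Hmgcs1 makes HMG-CoA at the entry to the pathway and carried the SRE match shown above (chr13:119690379-119708260). Controls stood at 59.1, 69.7, 76.9, 79.4 and 56.4 CPM, and Cre uteri at 151, 106, 88.4, 95.5 and 143 CPM. The groups were separate, though Cre replicate 3 lay close to control replicate 4. The log2 fold change was 0.77 (SE 0.16, edgeR adjusted p = 0.0151).

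Mvd, which decarboxylates the last mevalonate intermediate (chr8:122433601-122443422), measured 6.20, 7.90, 8.34, 7.77 and 6.42 CPM in controls and 25.5, 10.3, 10.1, 9.99 and 21.0 CPM in Cre uteri. Here the Cre uteri fell into a high pair, replicates 1 and 5, and 3 uteri just above the controls. The log2 fold change of 1.07 (SE 0.28) passed the edgeR test at an adjusted p of 0.0347. Leaving out any 1 control, Cre replicate 1 or Cre replicate 5 gave an adjusted p of 0.0599 to 0.0783.

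Pmvk, phosphomevalonate kinase, had another order of uteri (chr3:89454541-89469013). It was at 20.1, 20.6, 16.9, 19.0 and 23.2 CPM in the controls and 33.1, 38.2, 38.2, 46.4 and 20.2 CPM in the Cre uteri. Cre replicates 1 to 4 lay above every control, with replicate 4 highest, while replicate 5 lay inside the control range. The log2 fold change was 0.82 (SE 0.19, edgeR adjusted p = 0.0203), and the adjusted p was 0.0522 to 0.0606 without control replicate 2, 3 or 4.

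The other 2 mevalonate genes were not called by edgeR. Acat2, a cytosolic thiolase that makes acetoacetyl-CoA, ranged from 16.0 to 18.8 CPM in the controls and from 20.6 to 47.6 CPM in the Cre uteri. The groups were separate, but the spread in the Cre uteri was wide and the edgeR adjusted p was 0.0569 (log2 fold change 0.69, SE 0.20). That edgeR adjusted p was 0.0336 without Cre replicate 1 and 0.0388 without Cre replicate 3. With all uteri, the DESeq2 adjusted p of Acat2 was 0.0173. Acat2 shares 39.1% of its words with other genes, chiefly its paralog Acat3, so its counts are uncertain. Mvk, mevalonate kinase, ran from 12.6 to 15.4 CPM in the controls and from 14.5 to 19.1 CPM in the Cre uteri, with a log2 difference of 0.23 (SE 0.11, edgeR adjusted p = 0.210).

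In the squalene and sterol steps, 7 of 11 enzymes were called higher, beside the same 5.19% of all genes tested. The fitted difference was above 0 for all 11, and the median log2 fold change was 0.68. Fdft1, squalene synthase, commits farnesyl diphosphate to sterols (chr14:63145150-63179578). It was at 17.7, 18.4, 17.8, 21.8 and 16.1 CPM in the controls and at 50.3, 29.5, 30.1, 34.1 and 41.1 CPM in the Cre uteri. The groups did not overlap. The rise was 2.02-fold (log2 1.01, SE 0.15, edgeR adjusted p = 0.00335). Fdft1 overlaps Ctsb on the opposite strand, which was at 1010 CPM, and whether reads were counted by strand is not given in the sources used here.

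Sqle, squalene epoxidase, adds the first oxygen and is a rate-limiting enzyme of the pathway (chr15:59315077-59331192). Control values were 16.8, 21.5, 28.4, 24.0 and 16.7 CPM and Cre values were 71.1, 37.0, 38.9, 37.1 and 61.0 CPM. Every Cre uterus exceeded the highest control, replicate 3, and Cre replicates 1 and 5 stood well apart from the rest. Sqle rose 2.28-fold (log2 1.19, SE 0.22, edgeR adjusted p = 0.00886). Lss, lanosterol synthase, which closes the rings (chr10:76531588-76557138), went from 16.0, 16.9, 18.2, 16.2 and 14.7 CPM in the controls to 33.8, 23.4, 21.3, 24.9 and 27.6 CPM in the Cre uteri. Those groups were also separate, with a smaller rise of 1.60-fold (log2 0.68, SE 0.13, edgeR adjusted p = 0.00922).

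Cyp51 removes a methyl group from lanosterol and had the largest log2 fold change of the 32 genes after Fdps (chr5:4081145-4104746). Its levels were 28.4, 30.8, 35.6, 35.3 and 27.4 CPM in the controls and 122, 69.3, 63.2, 64.1 and 132 CPM in the Cre uteri. The lowest Cre uterus, replicate 3, stood well above the highest control, also replicate 3. The rise was 2.86-fold (log2 1.52, SE 0.22, edgeR adjusted p = 0.00278). Cyp51 overlaps Akap9 on the opposite strand, which was at 145 CPM.

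Msmo1, the sterol methyl oxidase (chr8:64718139-64733792), was at 13.0, 17.8, 18.3, 21.2 and 15.8 CPM in the controls and at 63.3, 31.97, 34.8, 38.5 and 57.4 CPM in the Cre uteri. No values were shared between the groups, and replicates 1 and 5 were again highest. The rise was 2.62-fold (log2 1.39, SE 0.21, edgeR adjusted p = 0.00299). Its partner in removing methyl groups, the dehydrogenase Nsdhl, ranged from 14.7 to 16.5 CPM in the controls and from 17.4 to 32.7 CPM in the Cre uteri. Nsdhl was called higher by a narrow margin (log2 0.57, SE 0.16, edgeR adjusted p = 0.0464), and the adjusted p was 0.0599 to 0.103 without any 1 control, Cre replicate 1 or Cre replicate 5.

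Tm7sf2, a sterol reductase (chr19:6062821-6068373), ranged from 7.19 to 10.04 CPM in the controls and from 9.40 to 17.7 CPM in the Cre uteri. Cre replicate 2 lay below control replicate 1, and the other 4 Cre uteri lay above all controls. The log2 fold change was 0.68 (SE 0.17, edgeR adjusted p = 0.0287), with an adjusted p of 0.0509 to 0.0791 without control replicate 2, 3, 4 or 5 or without Cre replicate 1 or 4. Tm7sf2 overlaps Vps51, which was at 20.3 CPM, on the same strand.

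The last steps of the pathway were among those with the smallest differences. Ebp, the sterol isomerase, had a log2 difference of 0.19 (SE 0.11, edgeR adjusted p = 0.294). For Sc5d, the desaturase, it was 0.26 (SE 0.17, edgeR adjusted p = 0.392). For Dhcr7, the reductase that can complete cholesterol, it was 0.19 (SE 0.09, edgeR adjusted p = 0.191). Control and Cre values overlapped for all 3, and Dhcr7 was at 25.8 to 32.3 CPM in the controls against 29.8 to 35.4 CPM in the Cre uteri. Hsd17b7, the keto-reductase, varied from 5.26 to 11.8 CPM among the controls and from 9.11 to 20.3 CPM among the Cre uteri. Its log2 difference of 0.69 (SE 0.25) was larger than those of Ebp, Sc5d and Dhcr7. Hsd17b7 was not called by edgeR (adjusted p = 0.105), whereas the DESeq2 adjusted p was 0.0461. Whether the early and late steps differed from each other was not tested.

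**Figure D2:**
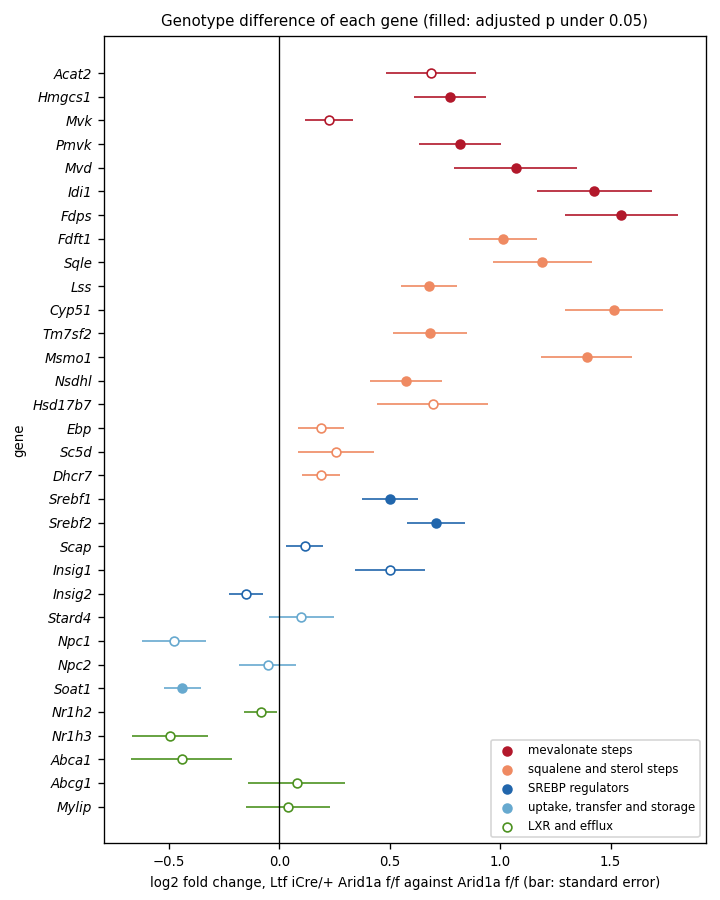
Log2 fold change of each gene in Cre uteri against controls on the horizontal axis, with bars for the standard error, n = 5 uteri per genotype, and filled points for an edgeR adjusted p under 0.05. The 18 synthesis enzymes at the top all lie above 0, from 0.19 to 1.55, and Soat1 at -0.44 is the one filled point below 0.

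The enzymes differed widely in level. In CPM per kilobase of annotated exon, the controls ran from 0.30 for Fdps and 0.82 for Idi1 to 14.2 for Ebp and 14.9 for Hmgcs1. The place of Fdps and Idi1 in this order is uncertain. Both share words with other genes, and Fdps overlaps a gene on the same strand. In the Cre uteri, the level of Fdps was 0.88 and that of Hmgcs1 was 25.4 on the same scale. Cyp51 went from 7.14 to 20.4 CPM per kilobase and came to stand above Ebp, which was at 16.2 in the Cre uteri.

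The uteri differed in how far the synthesis enzymes moved together. The median over the 18 enzymes of log2 CPM minus the control mean lay between -0.14 and 0.11 in the 5 controls. It was 1.14, 0.51, 0.50, 0.63 and 0.92 in Cre replicates 1 to 5. All 5 Cre uteri were above the controls, with replicate 1 highest, then replicates 5 and 4.

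As a sum, epithelial markers were higher in the Cre uteri, as the synthesis enzymes were. The summed level of 10 epithelial genes was 836 to 1116 CPM in the controls and 2456, 1369, 1187, 1457 and 1640 CPM in Cre replicates 1 to 5. The 5 Cre uteri fell in the same order by this sum as by the synthesis median, but the controls did not. Control replicate 3 had the lowest sum, 836 CPM, and a synthesis median of 0.10. Control replicate 1 had a sum of 1016 CPM and a synthesis median of -0.14. Of the 10 markers, 5 were called higher in the Cre uteri, where 5.19% of all genes tested were. Among them were Cdh1 (log2 fold change 0.82, SE 0.16, edgeR adjusted p = 0.0106) and Epcam (log2 fold change 1.19, SE 0.32, edgeR adjusted p = 0.0370). The fitted difference was above 0 for 9 of 10. Cldn3 went the other way (log2 -0.30, edgeR adjusted p = 0.558). It was at 78.7 and 59.2 CPM in Cre replicates 1 and 5, against 121 to 186 CPM in the controls. No marker was at 0 in all uteri. Summed proliferation markers were 1481 and 1408 CPM in Cre replicates 1 and 2, and 700 to 809 CPM in the other 3, against 633 to 999 CPM in the controls. The fitted difference was above 0 for 8 of 8 of them, with a median log2 fold change of 0.54. EdgeR called 2 of the 8 higher, Pcna and Mcm2, and DESeq2 called 4 higher. Summed stromal markers, mostly collagen counts, overlapped between genotypes, at 13618 to 20636 CPM in the controls and 11482 to 21342 CPM in the Cre uteri. EdgeR called 1 of 8, Dcn, lower, and DESeq2 called 2 lower, Dcn and Pdgfra. The fitted difference was below 0 for 6 of 8, with a median log2 fold change of -0.27. Pdgfra was at 534 to 725 CPM in the controls and 180 to 504 CPM in the Cre uteri. Adipocyte markers summed to at most 4.71 CPM in any uterus, with 0 of the 6 tested called by edgeR, 1 called higher by DESeq2 and 4 past an unadjusted edgeR p under 0.05, and Lep was at 0 in all controls. Ovarian markers summed to at most 26.9 CPM, in control replicate 2. EdgeR called 1 of 6, Lhcgr, lower, and DESeq2 called 2 lower, Lhcgr and Cyp11a1. Over all genes tested, edgeR called 5.19% higher and 4.51% lower. DESeq2 called 9.88% of its tested genes higher and 9.15% lower. The part of any marker list in the rise of the synthesis enzymes was not tested.

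**Figure D3:**
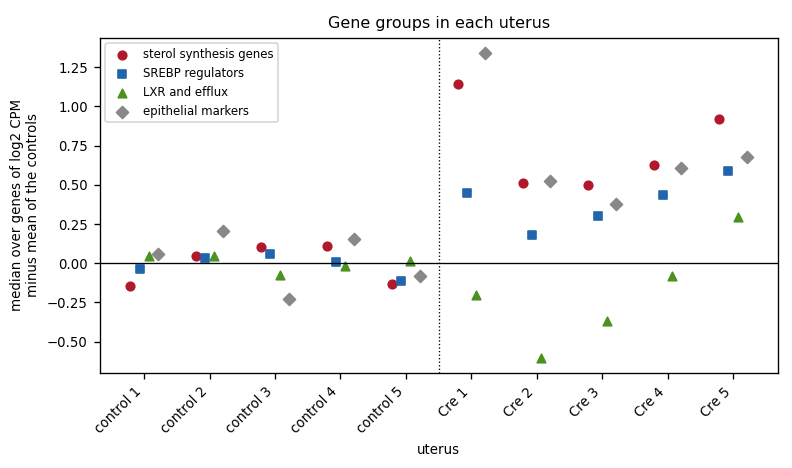
For each of the 10 uteri, the median over genes of log2 CPM (prior count of 2) minus the control mean is shown for the 18 synthesis enzymes, 5 SREBP regulators, 5 LXR and efflux genes and 10 epithelial markers. The synthesis and epithelial points rise in all 5 Cre uteri, to 1.14 and 1.34 in Cre replicate 1, while the LXR and efflux points run from -0.60 in Cre replicate 2 to 0.30 in Cre replicate 5.

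Among the 5 SREBP regulators, both SREBP genes were called higher by edgeR, where 5.19% of all genes tested were. Scap, Insig1 and Insig2, whose products carry or hold SREBP, were not called. Insig1 had a log2 difference of 0.50, as Srebf1 did, and DESeq2 called Insig1 higher. Srebf2 encodes the SREBP that mainly drives cholesterol synthesis (chr15:82147181-82205379). It was at 70.6, 75.5, 85.3, 76.1 and 64.1 CPM in the controls and at 161, 116, 97.1, 108 and 125 CPM in the Cre uteri. The groups were separate, and replicate 1 was highest. The rise was 1.63-fold (log2 0.71, SE 0.13, edgeR adjusted p = 0.00858).

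Srebf1 encodes the SREBP that mainly drives fatty acid synthesis (chr11:60199089-60222581). Controls were at 44.0, 46.9, 45.2, 42.5 and 37.0 CPM and Cre uteri at 79.7, 48.8, 53.0, 58.9 and 64.5 CPM. Cre replicate 2 was just above control replicate 2, the highest control, and no values overlapped. The rise was 1.41-fold (log2 0.50, SE 0.13, edgeR adjusted p = 0.0318), with an adjusted p of 0.0520 to 0.0756 without any 1 control or without Cre replicate 4 or 5. The log2 ratio of Srebf1 to Srebf2 was -0.78 ± 0.10 in the controls and -0.99 ± 0.16 in the Cre uteri (SD, n = 5 each), lower by 0.21 in the Cre uteri (two-sided exact permutation test, p = 0.0317, adjusted p = 0.0317 over 5 ratios). That adjusted p was 0.0556 to 0.0714 without control replicate 1, 2, 4 or 5 or Cre replicate 1, 2 or 5, and 0.112 without both Cre replicates 1 and 5. Srebf1 overlaps Rai1 on the opposite strand, which was at 82.9 CPM.

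Scap, the escort of SREBP, was at 65.2 ± 2.95 CPM in the controls and 70.7 ± 7.94 CPM in the Cre uteri (log2 difference 0.12, SE 0.08, edgeR adjusted p = 0.438). Insig1, a target of SREBP that feeds back on it, was at 16.7, 21.7, 22.1, 27.0 and 20.1 CPM in the controls and 29.1, 24.6, 28.3, 28.8 and 41.6 CPM in the Cre uteri. Cre replicate 2 lay within the control range, and replicate 5 was highest. The log2 difference of 0.50 (SE 0.16) was not called (edgeR adjusted p = 0.0681), whereas the DESeq2 adjusted p was 0.0299.

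Insig2, which does the same work but is not driven by SREBP in the same way, was at 42.0, 43.4, 40.8, 43.2 and 46.3 CPM in the controls and 36.9, 41.6, 39.4, 35.1 and 41.3 CPM in the Cre uteri. The groups overlapped and the log2 difference was -0.15 (SE 0.08, edgeR adjusted p = 0.237). The log2 ratio of Insig1 to Insig2 was -1.02 ± 0.26 in the controls and -0.37 ± 0.28 in the Cre uteri (SD, n = 5 each), higher by 0.65 in the Cre uteri (two-sided exact permutation test, p = 0.0159, adjusted p = 0.0317 over 5 ratios). Its adjusted p was 0.0556 without control replicate 5 or Cre replicate 1, and 0.0893 without both Cre replicates 1 and 5.

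**Figure D4:**
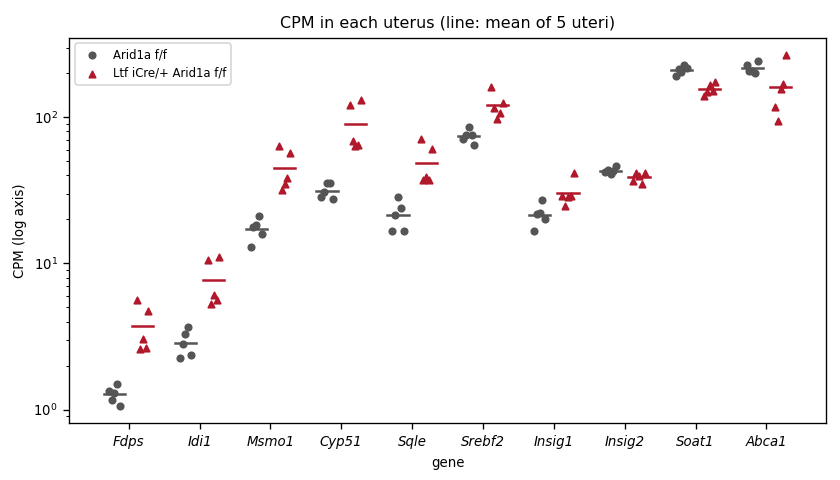
CPM on a log axis for 10 of the genes, with a point for each of 5 uteri per genotype and a line at the mean. Fdps, Idi1, Msmo1, Cyp51, Sqle and Srebf2 show no overlap between the genotypes and lie higher in the Cre uteri, Soat1 shows no overlap and lies lower, and Abca1 spans 94.0 to 266 CPM in the Cre uteri.

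Among the genes of uptake, transfer and storage, Soat1 fell and the other 3 were not called by edgeR. DESeq2 called 2 of the 4 lower, Soat1 and Npc1, where 9.15% of its tested genes were called lower. Soat1 esterifies cholesterol for storage in lipid droplets (chr1:156424525-156474331). It was at 191, 215, 204, 228 and 219 CPM in the controls and 139, 150.0, 167, 151 and 173 CPM in the Cre uteri. All 5 Cre uteri lay below all 5 controls, as 5.16% of all genes tested did. The level fell to 0.737 of the control (log2 -0.44, SE 0.08, edgeR adjusted p = 0.0100), where 4.51% of all genes tested were called lower. Soat1 was 1 of the 4 genes of its group, whose median log2 fold change was -0.25.

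Npc1 and Npc2 hand cholesterol out of the lysosome. Npc1, the membrane protein, was at 93.6, 115, 138, 125 and 142 CPM in the controls and 65.6, 101, 98.6, 97.0 and 79.5 CPM in the Cre uteri. Cre replicates 1 and 5 were lowest, while replicates 2, 3 and 4 lay above control replicate 1. The log2 difference was -0.48 (SE 0.14) with an edgeR adjusted p of 0.0592, which was 0.0320 without control replicate 1, and the DESeq2 adjusted p was 0.0209. Rmc1 overlaps Npc1 on the opposite strand and was at 26.3 CPM. Npc2, the soluble partner, was at 201 ± 27.8 CPM in the controls and 194 ± 31.3 CPM in the Cre uteri (log2 difference -0.05, SE 0.13, edgeR adjusted p = 0.844). The log2 ratio of Npc1 to Npc2 was -0.72 ± 0.25 in the controls and -1.14 ± 0.26 in the Cre uteri (SD, n = 5 each), lower by 0.42 in the Cre uteri (two-sided exact permutation test, p = 0.0317, adjusted p = 0.0317 over 5 ratios). Here the adjusted p was 0.0556 to 0.0714 without control replicate 3, 4 or 5 or Cre replicate 1, 4 or 5, and 0.161 without both Cre replicates 1 and 5.

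Stard4, a carrier of cholesterol between membranes, was at 55.2 to 80.3 CPM in the controls. Cre replicate 1 stood at 105 CPM and the other 4 Cre uteri at 63.8 to 69.4 CPM. The log2 difference was 0.10 (SE 0.15, edgeR adjusted p = 0.731), and -0.06 without Cre replicate 1.

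None of the 5 LXR and efflux genes was called by edgeR at an adjusted p under 0.05, and their median log2 fold change was -0.08. At an unadjusted p under 0.05, 1 of them passed, and DESeq2 called 1 of them, Nr1h3, lower (adjusted p = 0.0310). Nr1h3, LXR alpha, was at 10.1, 12.5, 9.28, 10.8 and 12.4 CPM in the controls and 5.58, 6.71, 8.49, 8.16 and 10.2 CPM in the Cre uteri. In all, 4 of the Cre uteri lay below every control, and replicate 5 was inside their range. The log2 difference was -0.49 (SE 0.17, edgeR adjusted p = 0.0938), and the adjusted p was 0.0407 without Cre replicate 5. Nr1h2, LXR beta, was at 60.6 ± 1.78 CPM in the controls and 57.1 ± 5.30 CPM in the Cre uteri (log2 difference -0.08, SE 0.08, edgeR adjusted p = 0.535). The log2 ratio of Nr1h2 to Nr1h3 was 2.46 ± 0.18 in the controls and 2.89 ± 0.25 in the Cre uteri (SD, n = 5 each), higher by 0.43 in the Cre uteri (two-sided exact permutation test, p = 0.0238, adjusted p = 0.0317 over 5 ratios). For this ratio the adjusted p was 0.0556 to 0.0595 without control replicate 1, 2, 4 or 5 or Cre replicate 1, and 0.0893 without both Cre replicates 1 and 5.

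Abca1 moves cholesterol out of the cell to lipid-poor apolipoproteins and had a higher level per length in the controls than Mylip or Abcg1, at 21.0 against 9.93 and 2.14 CPM per kilobase of exon. Control uteri were at 229, 206, 206, 202 and 244 CPM, and Cre uteri at 117, 94.0, 155, 168 and 266 CPM. Cre replicates 1 to 4 lay below every control, replicate 2 lowest, and replicate 5 lay above every control. The log2 difference over all uteri was -0.44 (SE 0.23, edgeR adjusted p = 0.247), and without Cre replicate 5 the adjusted p was 0.0202. Abcg1, which exports cholesterol to formed lipoproteins, was at 17.4, 14.9, 14.8, 15.8 and 15.2 CPM in the controls and 17.2, 10.3, 11.8, 16.7 and 26.4 CPM in the Cre uteri. Replicate 5 was again the highest and replicates 2 and 3 were below all controls, so that the log2 difference was 0.08 (SE 0.22, edgeR adjusted p = 0.866), and -0.16 without replicate 5.

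The log2 ratio of Abca1 to Abcg1 was 3.80 ± 0.12 in the controls and 3.27 ± 0.34 in the Cre uteri (SD, n = 5 each), lower by 0.53 in the Cre uteri (two-sided exact permutation test, p = 0.0159, adjusted p = 0.0317 over 5 ratios). It reached an adjusted p of 0.0556 without control replicate 5 or Cre replicate 1, and 0.0893 without both Cre replicates 1 and 5. Mylip, the LXR target that marks lipoprotein receptors for breakdown, was at 32.1 ± 3.89 CPM in the controls and 32.9 ± 10.2 CPM in the Cre uteri (log2 difference 0.04, SE 0.19, edgeR adjusted p = 0.929) and was highest in Cre replicate 5, at 47.7 CPM. Without that uterus the log2 difference of Mylip was -0.13. Macrophage markers were also highest in Cre replicate 5. Their 8 genes summed to 1512 CPM there, 443 to 735 CPM in the other Cre uteri and 308 to 567 CPM in the controls. The fitted difference was above 0 for 8 of 8 macrophage markers, with a median log2 fold change of 0.72. EdgeR called 0 of 8, and 3 passed an unadjusted edgeR p under 0.05. DESeq2 called 2 higher, where 9.88% of its tested genes were. Myometrial markers were lowest in Cre replicate 5, at 3398 CPM against 4667 to 9153 CPM in the other Cre uteri and 6497 to 11407 CPM in the controls. The fitted difference was below 0 for 7 of 7 myometrial markers, with a median log2 fold change of -0.45. EdgeR called 0 of them, and 1 passed an unadjusted edgeR p under 0.05. DESeq2 called 1 lower, where 9.15% of its tested genes were. The part of these cells in the efflux genes was not tested.

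Of 60 further genes of sterol and lipid handling, 59 had enough reads to be tested. Of those, 8 were called higher, where 5.19% of all genes tested were, and 9 called lower, where 4.51% were, with a median log2 fold change of -0.02. Among 8 genes of isoprenoid branches and other SREBP targets, 2 were called higher, beside 5.19% of all genes tested. Tmem97, a sterol-regulated membrane protein, went from 11.6 ± 2.13 to 22.2 ± 7.39 CPM (log2 0.94, edgeR adjusted p = 0.0188), and Pcyt2, an enzyme of phospholipid synthesis, from 33.2 ± 1.71 to 42.0 ± 4.55 CPM (log2 0.34, edgeR adjusted p = 0.0375).

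Of 12 fatty acid genes under SREBP control, 2 were called higher, 2 called lower and 8 not called, beside 5.19% and 4.51% of all genes tested called higher and lower. The elongases Elovl5 and Elovl6 rose, from 279 ± 10.9 to 460.2 ± 94.3 CPM (edgeR adjusted p = 0.00976) and from 55.4 ± 5.72 to 87.2 ± 16.7 CPM (edgeR adjusted p = 0.00960). Acss2, which makes acetyl-CoA from acetate, fell from 23.0 ± 1.55 to 15.8 ± 2.09 CPM (edgeR adjusted p = 0.0121). Fads2, a desaturase, fell from 84.5 ± 11.0 to 53.2 ± 7.96 CPM (edgeR adjusted p = 0.00810). The median log2 fold change of the 12 was 0.10.

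Of 14 genes of lipoprotein uptake and sterol transfer, 2 were called higher and 4 lower, beside 5.19% and 4.51% of all genes tested. Lrp8, a lipoprotein receptor, was at 3.75 to 7.16 CPM in the controls and at 8.18 to 44.4 CPM in the Cre uteri, highest in replicates 1 and 5 (log2 1.80, SE 0.46, edgeR adjusted p = 0.0322). Nceh1, a cholesterol ester hydrolase, rose from 24.9 ± 1.53 to 45.3 ± 21.5 CPM (edgeR adjusted p = 0.0423). The receptor Vldlr fell from 274 ± 25.4 to 182 ± 36.6 CPM (edgeR adjusted p = 0.0222), and Scarb1, a receptor for high-density lipoprotein, from 80.4 ± 11.8 to 53.7 ± 4.94 CPM (edgeR adjusted p = 0.00895). Lipa, the lysosomal acid lipase that frees cholesterol from its esters, fell from 123 ± 7.48 to 72.1 ± 20.3 CPM (edgeR adjusted p = 0.0136). Stard5, a sterol carrier, fell from 56.7 ± 2.65 to 37.5 ± 8.77 CPM (edgeR adjusted p = 0.0263).

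Among 11 other efflux genes and LXR targets, 2 were called higher and 1 lower, beside the same 5.19% and 4.51%. Arl4c rose from 82.2 ± 21.3 to 191 ± 66.0 CPM (edgeR adjusted p = 0.0107) and Smpdl3a from 35.9 ± 6.45 to 65.9 ± 22.1 CPM (edgeR adjusted p = 0.0278). Both were listed as targets of LXR, and whether LXR acts on them in the mouse uterus was not tested. Abca5, a transporter, fell from 56.6 ± 7.30 to 36.1 ± 10.03 CPM (edgeR adjusted p = 0.0396). Of 6 oxysterol enzymes tested, 1 was called, beside 4.51% of all genes tested called lower: Hsd3b7 fell from 39.8 ± 0.742 to 31.0 ± 2.93 CPM (edgeR adjusted p = 0.0187). The fitted difference of all 6 was below 0, with a median of -0.33, and 5 of them were not called.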

How the data were processed

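Whole-uterus mRNA at GD 3.5 was measured by paired-end RNA sequencing in 5 mice per genotype. The deposited values are raw counts of reads per gene, which the authors made by trimming (Trim Galore 0.6.4, cutadapt 1.18, with FastQC 0.11.9), aligning to GRCm38 and counting with STAR 2.7.3a, per the submitters' processing notes and the study's methods. The annotation release, and whether reads were counted by strand, are not given in the sources used here. Of 45706 gene IDs, 45143 matched GENCODE M21, which gave symbols, positions and exon lengths. The annotation used here may not be the release behind the counts.

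The 25146 genes that averaged 1 count or more over the samples entered the quasi-likelihood test of edgeR 4.0.16 in R 4.3.3 (TMM, genotype as the only factor), with Benjamini-Hochberg adjustment over all of them and a threshold of 0.05. Members and lists were chosen with earlier results of these data known. Libraries held 59296537 to 72702411 counts, and no pair of libraries was alike within sampling noise. Counting error weighs more in genes with low counts, such as Fdps at 1.06 to 1.49 CPM in the controls. Paralog ratios were log2 differences of CPM (prior count of 2), compared by exact permutation tests, adjusted over 5 ratios. Levels between genes were compared per kilobase of merged exon. Named genes were all 32 members, Arid1a and Ltf, and of each of 6 further pathway lists up to 6 called genes with the smallest adjusted p. The result of 1 gene is not reported here. Cell type markers were summed as CPM over 7 lists, of which the cell cycle list marks proliferation. The fits were tested on simulated data. Alternatives were DESeq2 1.42.0, RLE normalization, other count filters, a replicate block, a prior count of 0.5 and leaving out uteri. Cyp7a1 and Lep had too few counts to be tested.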

Additional observations from a re-analysis of the deposited data

Results flagged for a closer look

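Each of the 32 genes was checked in each genotype for a uterus whose gap to its nearest neighbor, as a share of the group's range, exceeded Dixon's 95% critical value of 0.71 for 5 samples. Chance alone marks about 1 in 20 groups, and 2 of 64 were marked. For Stard4, Cre replicate 1 stood apart as the highest, at 105 CPM against 63.8 to 69.4 CPM in the other 4 Cre uteri, with a gap of 0.830 of the range. For Scap, control replicate 5 stood apart as the lowest, at 60.3 CPM against 65.5 to 67.5 CPM in the other 4 controls, with a gap of 0.732 of the range.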

How the results depend on the processing

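The count of synthesis enzymes called, 12, ran from 8 to 14 over the alternatives, all of them higher in the Cre uteri. Over all genes, edgeR called 2438, DESeq2 called 4103, and leaving out 1 uterus gave 1204 to 2381, with 1204, 1248 and 1414 without control replicates 2, 3 and 4. Of 9 genes of SREBP control, uptake and storage, 3 were called by edgeR and 5 by DESeq2. Of 5 LXR and efflux genes, 0 were called by edgeR, 1 by DESeq2, 1 without Cre replicates 1 and 5, and 0 to 2 when 1 uterus was left out. RLE normalization moved the median log2 fold change of all genes by -0.0025.

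Of the 15 members called, 10 were called in each of the 10 fits that left out 1 uterus, and 5 (Pmvk, Mvd, Tm7sf2, Nsdhl and Srebf1) were lost in at least 1. The small log2 differences of some uncalled members changed sign. Without Cre replicates 1 and 5, Scap was at -0.0021, Stard4 at -0.057, Abcg1 at -0.27 and Mylip at -0.28. Leaving out 1 uterus gave -0.062 to 0.15 for Stard4, -0.12 to 0.027 for Npc2, -0.16 to 0.20 for Abcg1 and -0.13 to 0.16 for Mylip. The cause was not tested.

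Replicate numbers did not pair the uteri: same-numbered deviations from the group means correlated at 0.02, 0.06, -0.05, 0.02 and 0.13, and 2 of the 5 numbers correlated best with their own number. With the replicate block, 1704 genes and 8 synthesis enzymes were called, Abcg1 was at -0.00093 and Mylip at -0.0078. A paired exact test of 5 pairs cannot go below 0.0625, so no ratio could pass in it. With every number in both groups, the mean paired difference of a ratio equals the difference between the group means, so pairing leaves it unchanged. The ratio differences were 0.65 for Insig1 to Insig2, -0.21 for Srebf1 to Srebf2, 0.43 for Nr1h2 to Nr1h3, -0.53 for Abca1 to Abcg1 and -0.42 for Npc1 to Npc2. Unpaired and without Cre replicates 1 and 5, the ratio differences were 0.51, -0.22, 0.38, -0.38 and -0.28, none past the threshold. Leaving out 1 uterus gave 0.55 to 0.74, -0.24 to -0.14, 0.34 to 0.49, -0.64 to -0.40 and -0.50 to -0.32, and each ratio missed the threshold in at least 2 of those 10 fits.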
